A study of Bos taurus with 24 samples.

Results

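The genes described here changed little on average in bovine monocyte-derived macrophages (MDMs) 3 hours after exposure to E. coli and were strongly raised at 18 hours. There were 22 of them among the 24616 genes listed. They were chosen by measured values. In each pair of wells the response was log2 CPM (counts scaled to the TMM-normalized library size) of the exposed well minus that of the control well. A gene was kept when its mean response over 6 pairs was at least 2 at 18 hours and at most 0.5 at 3 hours, with a mean of at least 5 CPM in 1 or more of the 8 groups. The calgranulins S100A8, S100A9 and S100A12 were left out. The rise at 18 hours and the low response at 3 hours are therefore what selected these genes, and both are given below as descriptions without a test.

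The MDMs were grown with GM-CSF from blood monocytes of 6 lactating Holstein cows, 3 of a high and 3 of a low responder group, which had been classed by the nitric oxide their MDMs released after E. coli. Wells stood as untreated controls or received E. coli inactivated with PFA at a multiplicity of infection of 5, for 3 or 18 hours, which gave 24 mRNA libraries, 3 for each combination of phenotype, exposure and time point. The groups are thus high responder control, high responder exposed, low responder control and low responder exposed at each of both time points, and each library is 1 well of 1 cow. Total counts per library ranged from 6297190 to 17676166 at 3 hours and from 8987288 to 20936554 at 18 hours.

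Macrophages recognise the lipopolysaccharide of E. coli through TLR4. A first wave of genes needs no new protein and includes many cytokines and chemokines. Later genes commonly depend on proteins or secreted factors made in between. The products of late genes include enzymes that break down bacterial lipids, transporters that act on the phagosome, and proteins that act on clotting and matrix around the cell.

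The rule can be followed step by step in the counts. Of the 24616 genes, 9913 had a mean of at least 5 CPM in 1 of the groups. Of these, 284 had a mean response of at least 2 at 18 hours, and 261 of the 284 were already above 0.5 at 3 hours. S100A12 would have met the rule, with responses of -0.05 at 3 hours and 2.89 at 18 hours. S100A8 and S100A9 would not, since both were above 1 at 3 hours, at 1.3 and 1.2. Among the 22 genes, 9 could be given a symbol, namely IL17A, THBD, BACE2, AOAH, ENO3, APOBEC3H, FCAR, SLC11A1 and MMP25. The other 13 are known here by their Ensembl identifiers alone.

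**Figure D1:**
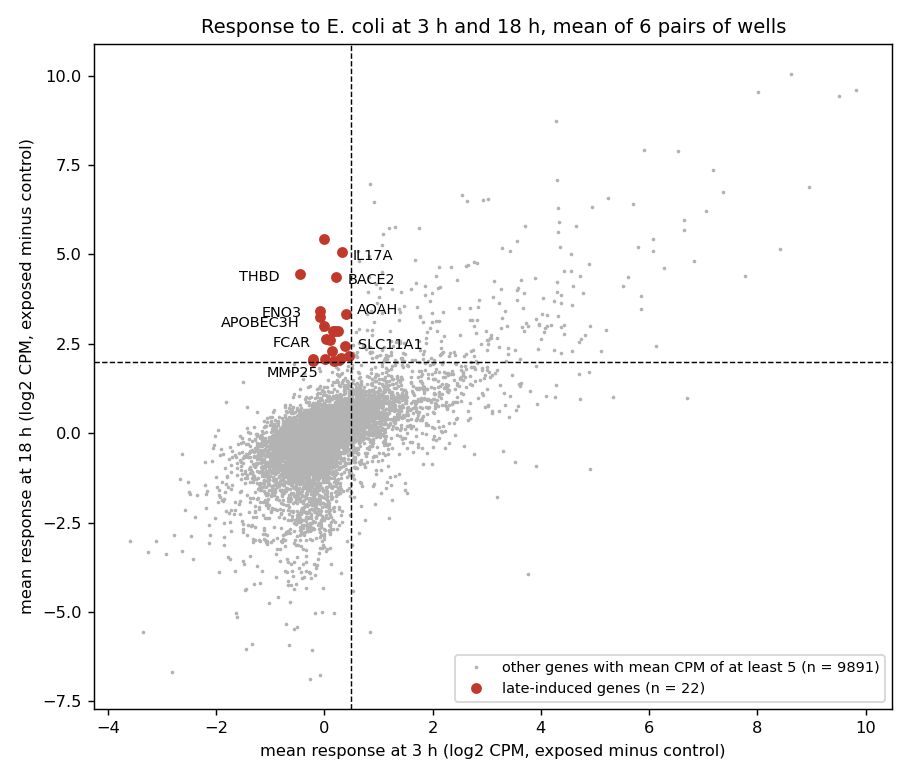
Each point is a gene with a mean of at least 5 CPM in 1 of the groups, placed by its mean response over 6 pairs at 3 h (x axis) and at 18 h (y axis), both in log2 CPM, exposed minus control. Dashed lines mark the thresholds of 0.5 and 2, and the 22 selected genes (red) lie above and to the left of them, with responses at 3 h between -0.45 and 0.46; S100A12, left out by the rule, is the grey point among them.

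Over the 22 genes the median response was 2.74 at 18 hours and 0.14 at 3 hours, beside medians of 0 and -0.02 over the 9913 genes. At 18 hours the 6 exposed libraries lay above the 6 control libraries without overlap in 16 of the 22 genes, and in 16.5% of the 9913. At 3 hours this held for 0 of the 22, and for 8.61% of the 9913. The rule used both contrasts, so these counts describe the selection. In untreated wells the median change of the 22 genes between the time points was -0.08 on the log2 scale, beside 0.01 over the 9913. Single genes moved in both directions, from -0.8 to 0.79, with -0.74 for AOAH and 0.43 for MMP25. Since the libraries come from whole wells, more cells with a transcript and more transcript per cell cannot be told apart.

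The gene closest to the threshold at 18 hours was, among genes with a symbol, MMP25 at 2.03, followed by SLC11A1 at 2.15 and FCAR at 2.62. Just outside lay JAM2 at 1.94, PSMB10 at 1.88 and APBB2 at 1.76. At 3 hours the nearest genes with a symbol inside were SLC11A1 at 0.46, AOAH at 0.39 and IL17A at 0.32, and the nearest outside were ACSL6 at 0.52, CAMK1G at 0.53 and B3GNT3 at 0.57. Values on both sides were thus close, and the border of the set is a matter of the thresholds.

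IL17A, a cytokine that recruits neutrophils and is best known from T cells, had 0 counts in each of the 6 control libraries at 18 hours. In the exposed wells of high responders it reached 14.4, 6.77 and 2.18 CPM, and in those of low responders 3.32, 5.4 and 3.09 CPM. The exposed wells held 437 counts in all, a level at least 171-fold higher than the floor of 3 counts over the control group. All 6 exposed wells therefore carried the transcript and no control well did, while the lowest and the highest exposed value both came from high responder cows. At 3 hours 2 exposed wells of the high responder group had 0.178 and 0.18 CPM and the other libraries were at 0.

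The labelled cell type was looked at beside IL17A. Macrophage markers were present in every library, the 4 with an identifier of the 15 listed (CD68, MSR1, CD14 and AIF1) summing to between 1750 and 3370 CPM. CD68, a lysosomal glycoprotein of macrophages, was the most abundant of them and rose by 0.62 at 18 hours, whereas the scavenger receptor MSR1 fell by 3.76, AIF1 by 0.95 and CD14, the lipopolysaccharide co-receptor, by 0.75. None of the 8 T cell markers had an identifier, so that a contribution of T cells to the IL17A transcript was not tested. PRF1, the pore-forming protein of killer cells and the only one of 7 natural killer cell markers with an identifier, averaged 3.04 CPM in high responder exposed wells at 18 hours and 1.54 CPM in low responder exposed wells. In the control wells it averaged 0.678 and 0.362 CPM. LTF, the only neutrophil marker of 8 with an identifier, averaged 1.08 CPM in high and 0.595 CPM in low responder exposed wells at 18 hours. In the control wells it averaged 0.166 and 0.114 CPM. At 3 hours the exposed wells averaged 0.734 and 0.555 CPM, against 0.169 and 0.0987 CPM in the control wells. LTF was at or below 1.72 CPM in every library, and CD79A, the 1 B cell marker of 7, at or below 1.89 CPM. LAMP3, the 1 dendritic cell marker of 11, averaged 9.95 CPM in high and 5.41 CPM in low responder exposed wells at 18 hours, against 2.01 and 3.71 CPM in the control wells. It was already higher at 3 hours, at 8.56 CPM in high and 9.06 CPM in low responder exposed wells, against 1.61 and 2.42 CPM in the control wells. The fibroblast, endothelial and epithelial markers with an identifier (LUM, PDGFRB, KDR, KRT8 and KRT18) reached at most 4.7 CPM, and none of the platelet or erythroid markers had one. The study removed non-adherent cells and washed the flasks before harvest. It also checked harvested cells by flow cytometry for CD14 and for a dendritic cell marker. The part of cells that express PRF1, LAMP3 or LTF in these results was not tested.

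THBD encodes thrombomodulin, a surface receptor that turns thrombin towards the activation of protein C. Its CPM in high responder control wells at 18 hours were 5.11, 4.26 and 4.46, and in the exposed wells 77.2, 52.9 and 91.8. Low responder control wells had 1.72, 2.43 and 1.77 CPM and their exposed wells 100, 45.7 and 65.1. Exposed wells of both phenotypes thus overlapped widely, whereas the control wells of high responders lay above those of low responders. The control difference was 1.19 (SE 0.25) on the log2 scale and did not pass edgeR's quasi-likelihood test (adjusted p = 0.0702), and the difference in response was -0.98 (SE 0.35, adjusted p = 0.192). At 3 hours the mean response was -0.89 in the high and -0.01 in the low responder group.

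AOAH, the acyloxyacyl hydrolase that removes fatty acids from lipid A and so inactivates lipopolysaccharide, had 4.74, 7.76 and 10.2 CPM in high responder control wells at 18 hours and 88.1, 125 and 145 CPM in exposed wells. The low responder cows had 4.54, 2.96 and 18.4 CPM without and 53.5, 24.2 and 50.9 CPM with E. coli. The exposed wells of the 2 phenotypes did not overlap. The share of all genes with such a separation between phenotypes was not counted, here or for the genes below. The low responder cow with the highest control value had the smallest response, 1.46. The difference in response was 1.47 (SE 0.44), which did not pass the test (adjusted p = 0.121), nor did that between exposed wells, 1.45 (SE 0.31, adjusted p = 0.0937). Without low responder 94 the difference in response was 0.72. Cows are named by the number in their library code at 18 hours, which need not mark the same cow at 3 hours. At 3 hours the mean response of AOAH was 0.81 in the high and -0.02 in the low responder group.

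SLC11A1, also called NRAMP1, exports divalent metal ions from the phagosome and was first known as a resistance gene for intracellular bacteria. Its mean TPM (RSEM's abundance relative to transcript length) in the exposed wells at 18 hours was 292, made of 383 in high and 201 in low responders. High responder control wells had 120, 103 and 123 CPM and the exposed wells 825, 750 and 593. Low responder control wells had 103, 63.6 and 148 CPM and the exposed wells 312, 216 and 458. Control wells of the phenotypes overlapped and exposed wells did not, but edgeR did not call the difference between exposed wells (adjusted p = 0.112). At 3 hours SLC11A1 was already higher in the exposed well of each of the 6 pairs, with responses from 0.27 to 0.72.

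FCAR, a receptor of myeloid cells for the Fc part of immunoglobulin A, had 8.32, 9.71 and 5.29 CPM in high responder control wells at 18 hours and 66.9, 79.7 and 85.6 CPM in the exposed wells. For low responders these were 16.2, 8.17 and 7.33 CPM, and 59.4, 22.8 and 38.9 CPM. Again only the exposed wells were separate between the phenotypes. Their difference was 0.92 (SE 0.31) on the log2 scale and was not called by edgeR (adjusted p = 0.185).

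ENO3 encodes the beta form of enolase, a glycolytic enzyme best known from muscle. In the high responder group its control wells at 18 hours had 8.83, 8.21 and 7.38 CPM and its exposed wells 160, 173 and 141. Low responder wells had 9.9, 12.5 and 27.1 CPM, and 67.5, 41.5 and 126 CPM. High responders thus started below and ended above low responders, with no overlap in either kind of well. Neither of these differences passed edgeR's test. At 3 hours, ENO3 ranged from 3.11 to 25.6 CPM in control wells and from 4.4 to 29.8 CPM in exposed wells, a mean response of -0.09 in each phenotype.

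Of the remaining named genes, MMP25 encodes a membrane-anchored matrix metalloproteinase of leukocytes. Its exposed wells at 18 hours had 37.3, 45.8 and 66.5 CPM in high responders and 31.1, 20.2 and 28.8 CPM in low responders, against control wells between 5.08 and 11.1 CPM. APOBEC3H, a cytidine deaminase that restricts retroviruses, lay between 1.04 and 4.4 CPM in control wells and between 10.4 and 32 CPM in exposed wells. BACE2, an aspartyl protease related to beta-secretase, lay between 0 and 0.597 CPM in control wells and between 2.45 and 16.3 CPM in exposed wells. In each of these 3 genes all exposed wells stood above all control wells, and for APOBEC3H and BACE2 the phenotypes overlapped among the exposed wells. At 3 hours the mean response of MMP25 was 0.7 in the high and -0.17 in the low responder group.

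**Figure D2:**
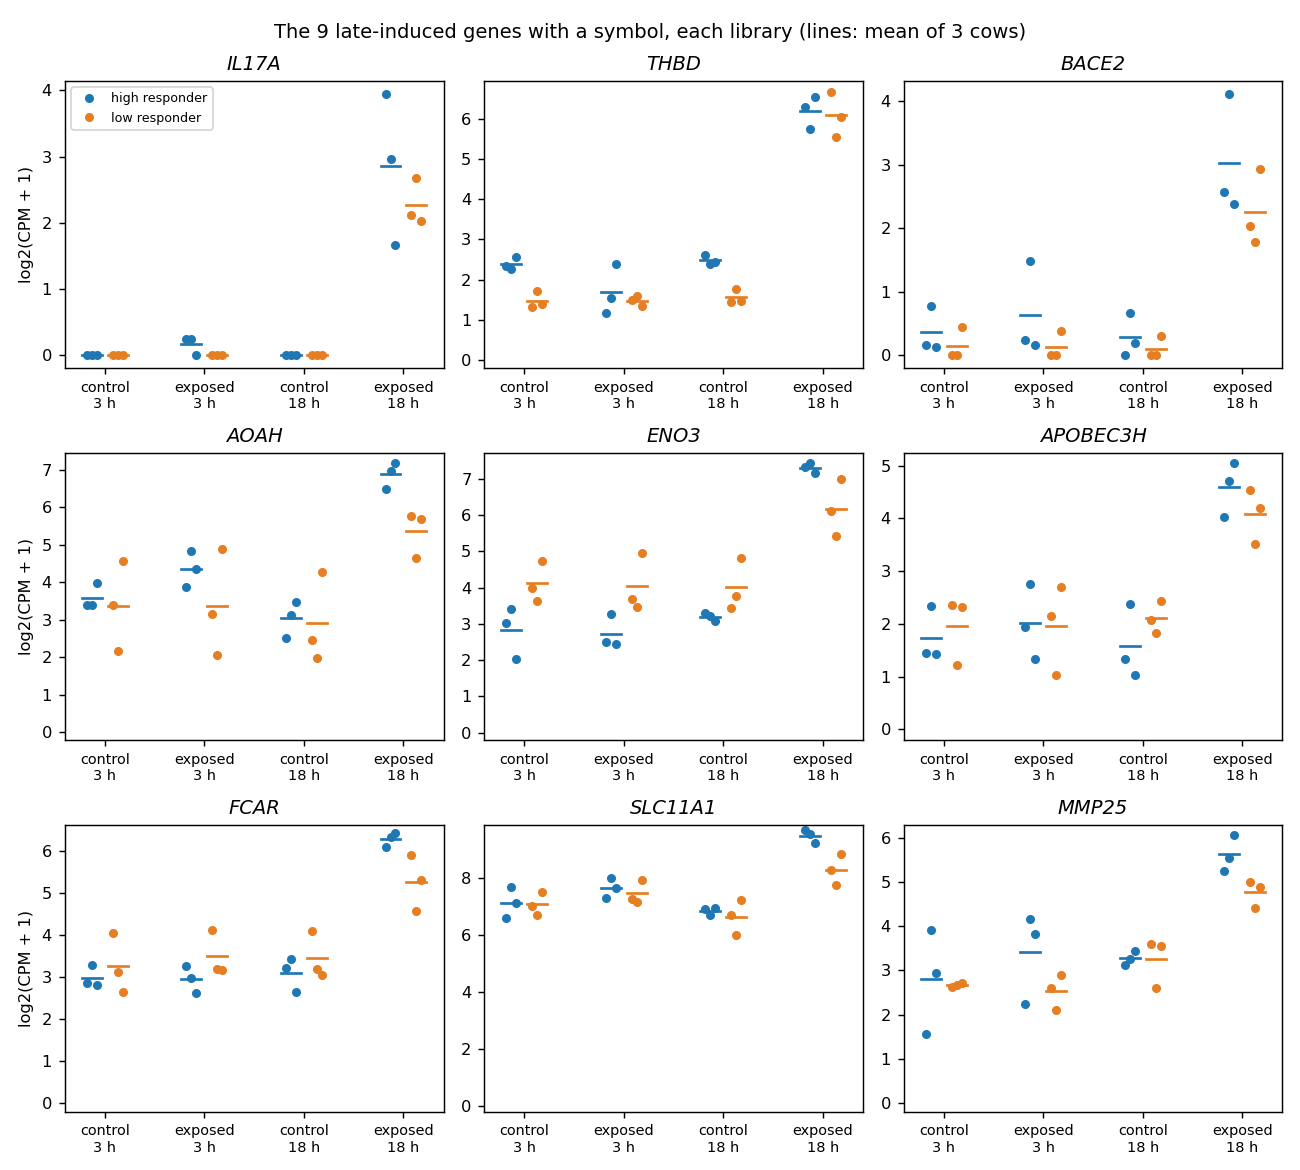
Each panel shows 1 of the 9 genes with a symbol as log2(CPM + 1) in every library, by exposure and time point, for high (blue) and low (orange) responders; short lines are means of 3 cows. The exposed wells of 18 h stand above all control wells of 18 h in every panel.

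Per length and over both phenotypes, the order of the named genes in the exposed wells at 18 hours was SLC11A1 at 292 TPM, ENO3 at 109 TPM, FCAR at 99.3, AOAH at 29.3, THBD at 24.9, MMP25 at 24.6, APOBEC3H at 23.4, IL17A at 8.27 and BACE2 at 4.57. The order of the 4 genes from AOAH to APOBEC3H was not the same in both phenotypes. AOAH was the highest of the 4 in high responders, at 41.4 TPM, and the lowest in low responders, at 17.3 TPM. The scarcest of the named genes, IL17A and BACE2, were also those whose responses of 5.05 and 4.37 rested on control wells at or near 0 counts. There the prior count of 2 used for the log values holds the response down.

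Among the 13 genes without a symbol, 11 were higher in the exposed well of all 6 pairs at 18 hours, and 7 had no overlap between exposed and control libraries. The largest response of the 22, 5.42, belonged to ENSBTAG00000013300, which had 2 counts in the control wells of 18 hours, 525 in the exposed wells and 0 in every library of 3 hours. Its exposed wells had 9.9, 7.59 and 11.3 CPM in high responders and 5.62, 5.19 and 5.33 CPM in low responders, which did not overlap. That difference was not called by edgeR (adjusted p = 0.125). ENSBTAG00000004515 went the other way between phenotypes, with 3.14, 3.34 and 2.57 CPM in high and 11.2, 26.4 and 11.1 CPM in low responder exposed wells. It reached the minimum of 5 CPM through the low responder exposed wells alone, so that this difference is partly set by its selection and is given as a description.

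The responses were not equally even. All 9 named genes were higher in the exposed well of each of the 6 pairs at 18 hours. In 2 genes without a symbol not every pair was above 0. One of them had pair responses of 4.91, -0.25 and 0.83 in high responders and 1.9, -0.35 and 5.06 in low responders, so that 2 cows carried its mean of 2.02. It is also 1 of the 2 genes whose expected counts were not whole in some libraries, which happens where reads are shared between genes. The 9 named genes had whole counts in all libraries.

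**Figure D3:**
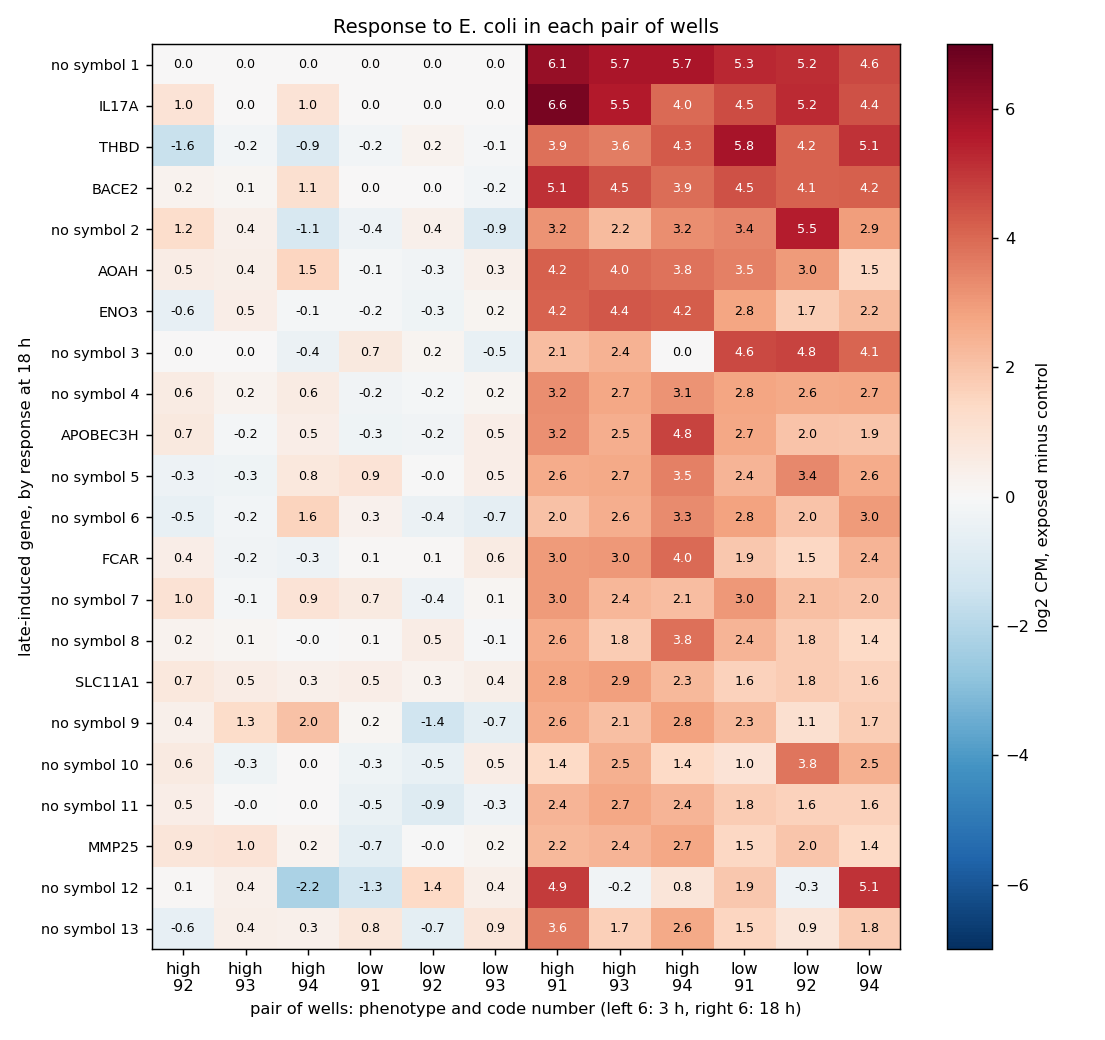
Rows are the 22 genes in the order of their response at 18 h and columns the 12 pairs of wells, the 6 of 3 h on the left; colour and number give log2 CPM, exposed minus control. No symbol 1 is ENSBTAG00000013300 and no symbol 2 is ENSBTAG00000004515. Values at 18 h are nearly all positive, while those at 3 h lie on both sides of 0. SLC11A1 is above 0 in all 6 pairs of 3 h.

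By pair, the median response of the 22 genes at 18 hours was 3.07, 2.62 and 3.28 in the 3 high responder cows and 2.74, 2.04 and 2.45 in the 3 low responder cows. The ranges of the phenotypes overlapped. These medians include the 7 genes that reached 5 CPM in 1 phenotype only. At 3 hours the pair medians were 0.41, 0.29 and 0.06 in high responders and -0.03, 0 and 0.15 in low responders. Only 9 of the 22 genes met both thresholds in the means of both phenotypes taken separately, among them THBD, BACE2, ENO3 and APOBEC3H.

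Whether the response differed between high and low responders was tested, since the mean response that chose the genes does not use the phenotype. The minimum of 5 CPM does use it. It was reached in groups of both phenotypes by 15 of the 22 genes, in high responders alone by 4, IL17A and BACE2 among them, and in low responders alone by 3. Those 7 genes tend to differ between phenotypes by selection, so that medians and counts at an unadjusted p are given over the 15. The test compared the effect of E. coli in both phenotypes with a term for each cow, and a gene was called at an adjusted p below 0.05 with a fold change above 1.5. At 18 hours all 22 genes could be tested, and 3 of them, ENO3, SLC11A1 and FCAR, rose more in the high responder group, while 0 rose more in the low responder group. Over all 11759 genes tested, 1.34% were called in the first direction and 0.281% in the second. The median difference over the 15 genes was 0.81, with 13 above 0, beside a median of -0.02 and 47.6% above 0 over all genes tested. At an unadjusted p below 0.05 there were 8 of the 15, and 17.6% of all genes tested. Most of all genes tested were not induced, and other induced genes were not compared as a set. The lean towards high responders is therefore not shown to be particular to these 15. In a fit without the term for the cow edgeR called 0 of the 22, with adjusted p values of 0.293 for ENO3, 0.434 for FCAR and 0.489 for SLC11A1. The share of all genes called in that fit was not counted.

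ENO3 had the largest called difference, 2.06 on the log2 scale (SE 0.23, adjusted p = 0.00602). Its pair responses were 4.15, 4.37 and 4.23 in high responders and 2.75, 1.71 and 2.2 in low responders. Within the time point, the high minus low difference was -1.03 (SE 0.36, adjusted p = 0.16) in control wells and 1 (SE 0.35, adjusted p = 0.203) in exposed wells, neither of which passed. The corrected difference was thus made of both parts, and the call held in 6 of 6 fits that omitted 1 cow.

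SLC11A1 differed by 0.97 (SE 0.16, adjusted p = 0.0229). The pair responses were 2.78, 2.86 and 2.27 in high responders, all above the 1.6, 1.76 and 1.63 of low responders. The control wells differed by 0.13 (SE 0.27) and the exposed wells by 1.12 (SE 0.27, adjusted p = 0.112). Without high responder 91, low responder 91, 92 or 94 the call was lost, at adjusted p values of 0.0625, 0.0584, 0.0974 and 0.0851, with differences of 0.9, 0.92, 1.02 and 0.95.

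FCAR differed by 1.42 (SE 0.3, adjusted p = 0.0491), close to the threshold. Its pair responses were 2.99, 3.02 and 3.98 in high responders and 1.87, 1.46 and 2.39 in low responders. The call stood only with high responder 93 left out (adjusted p = 0.0494). Leaving out any other cow gave adjusted p values from 0.0598 to 0.208, with differences between 1.11 and 1.64.

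Just short of the threshold lay 1 gene without a symbol, with a difference of 0.81 (SE 0.18, adjusted p = 0.0575), and MMP25, with 0.86 (SE 0.2, adjusted p = 0.0664). Further from it than AOAH and THBD, APOBEC3H had 1.21 (SE 0.48, adjusted p = 0.235), which was 0.64 without high responder 94 and 1.89 (edgeR adjusted p = 0.0724) without high responder 93. IL17A and BACE2 had too few counts in control wells for a useful estimate, and edgeR gave 0.84 for IL17A with an adjusted p of 1 and -0.57 (SE 0.93) for BACE2. With 1 cow left out, the value for IL17A lay between 0.04, without high responder 91, and 1.31, without high responder 94. A p above the threshold does not show that the phenotypes responded alike.

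**Figure D4:**
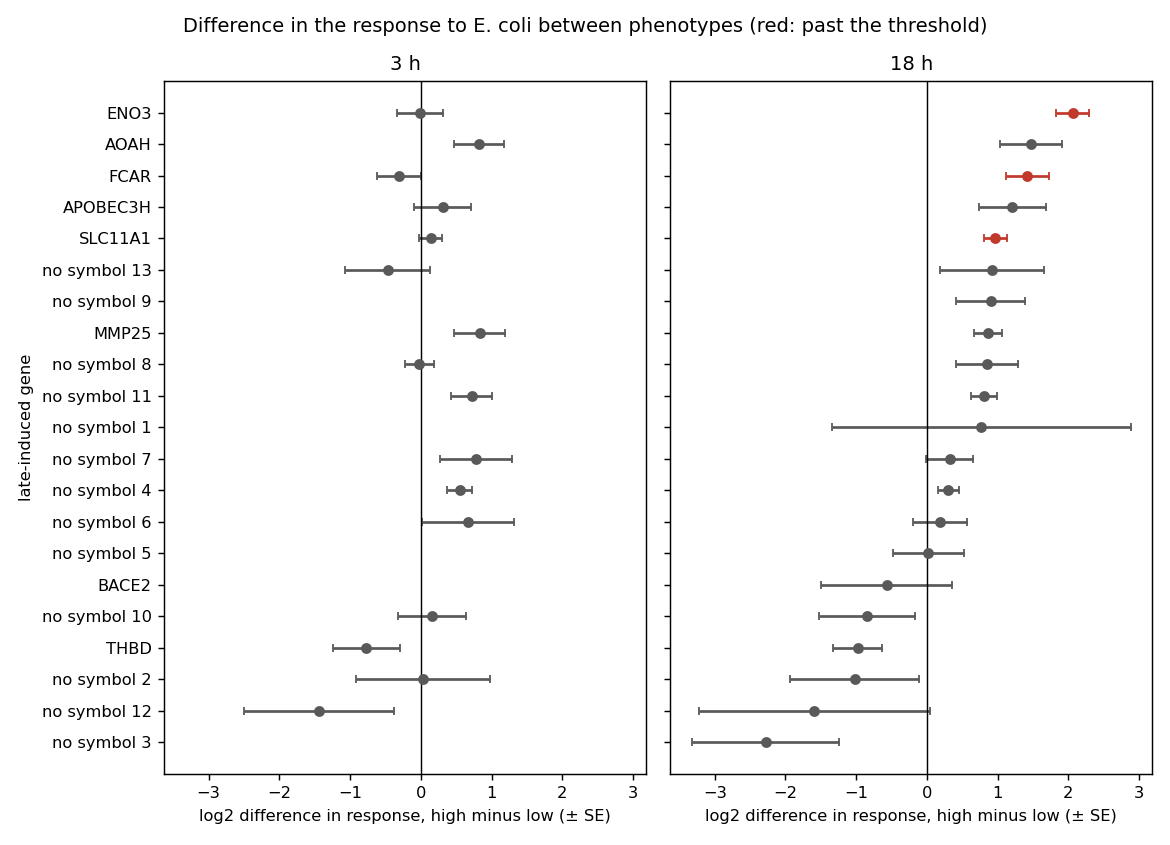
Points give the difference in response between high and low responders on the log2 scale with its SE, at 3 h (left) and 18 h (right), for 21 of the 22 genes; IL17A has no usable SE, and genes not tested at 3 h have no point there. The red points at 18 h are ENO3, FCAR and SLC11A1, at 2.06, 1.42 and 0.97.

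At 3 hours, 16 of the 22 genes had enough counts to be tested, and 0 differed in response between the phenotypes, beside 0.178% of all 11264 genes tested. At an unadjusted p below 0.05 there were 4 of the 13 tested among the 15, beside 12.7% of all genes, and DESeq2 called 0 of the 16, beside 1.68% of all genes. The differences of ENO3, SLC11A1 and FCAR at 3 hours were -0.01 (SE 0.32), 0.14 (SE 0.16) and -0.31 (SE 0.31). The change of the difference from 3 to 18 hours was tested directly over all 24 libraries. It was 2.12 (SE 0.4, adjusted p = 0.217) for ENO3, 1.77 (SE 0.46, adjusted p = 0.289) for FCAR and 0.86 (SE 0.24, adjusted p = 0.296) for SLC11A1. None of the 22 genes passed edgeR's test, as 0% of the 11905 genes tested did, while 3 of the 15 were below an unadjusted p of 0.05, beside 9.74% of all genes. DESeq2 called ENO3 and 0.277% of all genes. The letter in the library code pairs wells of both time points, and control wells with the same letter deviated together (r across genes between 0.355 and 0.727 in 6 pairs, and between -0.554 and -0.101 in the 12 others). With cows matched by that letter, a fit added after seeing the data, the changes were 2.1 (SE 0.48), 1.72 (SE 0.46) and 0.89 (SE 0.38) for ENO3, FCAR and SLC11A1, and 0 of the 22 passed edgeR's test, beside 0.0084% of all genes. Below an unadjusted p of 0.05 were 3 of the 15, beside 6.35% of all genes. The differences of these 3 genes at 18 hours were not shown by edgeR to differ from those at 3 hours.

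In the control wells of 18 hours 13 of the 22 genes could be tested, and edgeR called 0 of them between the phenotypes (0.15% of 11356 genes tested). At an unadjusted p below 0.05 there were 2 of the 12 tested among the 15, beside 21.7% of all genes. DESeq2 called THBD and 6.09% of all genes. In the exposed wells edgeR called 0 of the 22 (0.0446% of 11210 genes tested), while 7 of the 15 were below an unadjusted p of 0.05, beside 18.2% of all genes. DESeq2 called 6 of the 15, beside 5.72% of all genes. With 3 cows against 3 and no term for the cow, this comparison rests on the spread between cows.

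The gene lists that hold named genes place them among their pathways. For the other genes of these lists, without any of the 22, the effect of E. coli over both phenotypes was tested, and over all genes 13.5% rose and 12% fell at 3 hours, and 15.1% rose and 21.4% fell at 18 hours. Of 26 such genes of glycolysis and the hypoxia response, the list of ENO3, 12 rose and 2 fell at 3 hours and 12 rose and 5 fell at 18 hours. Scaled to library totals alone, which shifts most genes down at 3 hours, 9 rose and 6 fell at 3 hours. ENO1, the common enolase, had responses of 0.23 and 0.37 and was not called at either time point, with mean CPM of 1850 in control and 2440 in exposed wells at 18 hours. HIF1A, the oxygen-regulated transcription factor, rose at both, by 1.71 and 1.23, and so did the glucose transporter SLC2A3, by 3.08 and 2.75.

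Of 8 antimicrobial peptides and enzymes beside SLC11A1, 7 rose at 3 hours, and 6 rose and 1 fell at 18 hours. Scaled to library totals alone, 5 of these 8 rose at 3 hours, and 5 rose and 1 fell at 18 hours. NOS2, which makes nitric oxide, rose by 8.01 at 3 hours and 9.55 at 18 hours, and ACOD1, which makes itaconate, by 5.62 and 4.37. Of 14 genes of oxidant defence and metal handling beside SLC11A1, 8 rose and 1 fell at 3 hours and 11 rose and 1 fell at 18 hours. Scaled to library totals alone, 5 of them rose at 3 hours. The zinc importer SLC39A8 rose at both time points, by 1.17 and 2.17, and PRDX5, an antioxidant peroxidase, was called at 18 hours (1.22) and not at 3 hours (0.18).

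Of 16 matrix proteases and inhibitors beside MMP25, 9 rose at 3 hours, and 9 rose and 2 fell at 18 hours. Scaled to library totals alone, 5 rose at each time point. MMP14, another membrane-bound matrix metalloproteinase, had responses of 0.64 and 0.39 and was called at 3 hours alone. ADAMTS5, a protease that cuts aggrecan, rose by 6.65 and 5.68. Of 21 cytokines and growth factors tested at both time points, 15 rose at 3 hours, and 14 rose and 5 fell at 18 hours. Scaled to library totals alone, 11 rose and 2 fell at 3 hours. IL17A was not among them, since it had too few counts at 3 hours. IL1B, a main inflammatory cytokine, rose by 7.06 and 6.22, and IL6 by 6.69 and 0.99. IL36G, an epithelial and myeloid cytokine of the IL-1 family, rose by 0.88 and 3.4.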

How the data were processed

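The authors used Trimmomatic for trimming, STAR for mapping to UMD 3.1 (Ensembl release 94) and RSEM 1.3 to estimate gene levels. The deposited files hold RSEM's expected counts, which are not normalized, and its TPM for 24616 genes in 24 libraries. Expected counts were rounded; 492 to 852 genes per library were not whole. TPM were used to compare levels between genes and, in 1 alternative, to select the genes.

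CPM, responses and tests came from edgeR 4.0.16 in R 4.3.3 (TMM factors and prior count of 2 per time point, filterByExpr by group, quasi-likelihood fit and test, 1 effect of E. coli per phenotype and a term for each cow). Adjusted p values are Benjamini-Hochberg values over all genes tested. DESeq2 1.42.0 served as an alternative. Control and exposed wells with the same phenotype, time point and code number were treated as 1 cow, as the study numbered samples within a phenotype. Correlations of deviations from group means were 0.327 to 0.732 for the 12 same-number pairs and -0.568 to 0.00521 for the 24 others. Only 1 alternative matched cows between 3 and 18 hours, using library code letters. With 3 cows against 3, the smallest p of an exact two-sided permutation test is 0.1.

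The genes, lists and tests were chosen with earlier results of these data known. "Condition" in the rule was read as each of the 8 groups. Named genes are the members with a symbol, and the 3 genes nearest each threshold on either side. Genes of the lists were named after their values were seen. Symbols for 2803 of 24616 identifiers came from supplementary tables, which are ordered partly by the difference between phenotypes, so that lists are incomplete in a way that is not random. The edgeR fits of the 5 comparisons between phenotypes and of the effect of E. coli at 18 hours were tested on simulated data. For the difference in response at 18 hours, 182 of 200 added changes were recovered, with 13 false calls. For the change with time these were 154 of 200 and 10. The simulated cows did not differ from each other, so the simulation did not check the term for the cow. No sequence or promoter of these genes was used here.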

Additional observations from a re-analysis of the deposited data

Results flagged for a closer look

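For ENO3, SLC11A1 and FCAR the response to E. coli at 18 hours differed between high and low responders by the test of the difference itself. The differences, high minus low on the log2 scale, were 2.06, 0.97 and 1.42, and the response of each gene was larger in all 3 high responder cows than in any low responder cow. That separation describes the same values as the test, and its share over all genes was not counted. The genes without a call were not shown to respond alike. Groups of 3 wells were too small to look for single outlying samples.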

How the results depend on the processing

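The set of 22 genes was compared with the sets that other choices gave. Library totals alone gave 34 genes, 15 of them shared with the 22, and moved the median effect of E. coli over all genes from -0.019 to -0.446 at 3 hours and from -0.018 to -0.212 at 18 hours. A minimum of 1 CPM gave 37 genes, a minimum of 20 CPM 11, a response of at least 1.5 at 18 hours 44, and one of at least 2.5 gave 13. Requiring the thresholds in both phenotypes left 9, and log2(TPM + 1) gave 34 genes, 10 of them shared. RLE factors kept all 22. Counting a condition as exposure and time point alone, chosen after seeing the data, left 19. Leaving out 1 pair gave between 18 and 29 genes, and 11 of the 22 were kept in all 12 such sets.

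The 3 genes with a larger response in high responders at 18 hours became 6 without the filter on low counts, with MMP25, AOAH and 1 gene without a symbol added. RLE factors gave 4, with the same gene without a symbol added, and leaving out 1 cow gave between 1 and 3. Without the replicate block for the cow there were 0, at adjusted p values of 0.293 for ENO3, 0.434 for FCAR and 0.489 for SLC11A1 in edgeR's test; the differences themselves were 2.03, 1.35 and 0.99. A mean of at least 50 counts left FCAR at an adjusted p of 0.0519. The share of all genes called was not counted in these edgeR alternatives. No alternative turned the direction of these 3. DESeq2 called 4 (MMP25 added), beside 3.36% of all genes in either direction. Its calls were 1 in control wells, beside 6.09% of all genes, and 1 for the change with time, beside 0.277%. In exposed wells it called 6 of the 15 genes that reached 5 CPM in both phenotypes, beside 5.72% of all genes. With the 7 other genes there were 10 calls, but those 7 tend to differ between phenotypes by selection. In control wells, in exposed wells and for the change with time edgeR called 0. Leaving out 1 cow gave 0 calls at 3 hours, in control wells and in exposed wells each time. The share of all genes called was not counted there either. The causes of these changes were not tested. IL17A and BACE2 had few or no counts in control wells, and the difference in response of BACE2 ranged from -3.02 to 0.14 with 1 cow left out. With 1 cow left out that of AOAH ranged from 0.72 to 1.86, that of APOBEC3H from 0.64 to 1.89, that of THBD from -1.53 to -0.67 and that of IL17A from 0.04 to 1.31, and none of these 5 passed edgeR's test.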
